A study of Mus musculus with 12 samples.

Results

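DNA damage response and repair genes were followed in CT26 cells, a mouse colon carcinoma line grown in culture, across 4 treatments of 24 h. The set is a list of 37 genes picked by name, of which 36 have a row among the 12584 genes of the expression table; Rad51c, the remaining listed gene, was not used here. RNA sequencing was done on 3 libraries for each of the treatments NP-D@MP, NP-D@M, NP@M and PBS, where PBS is phosphate-buffered saline, and each library was built from 1 ug of total RNA. The study's title concerns a nanodrug, coated with cancer cell membrane, against CDKs, the cyclin-dependent kinases; the labels give neither the doses nor the meaning of NP, D, M and P, so the groups are called by their names, and "with D" stands for NP-D@MP and NP-D@M together. Replicates are named by the labels' running number, 10 to 12 in NP-D@MP, 7 to 9 in NP-D@M, 4 to 6 in NP@M and 1 to 3 in PBS, and values per library are given by ascending number. All groups share the same cell line, and since no label says that the 3 libraries are separate cultures, a p-value here sets a difference against the spread among these samples alone, which may be technical.

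Cells meet broken or altered DNA with kinases that sense the damage and stop the cell cycle, with adaptor proteins that gather at the damaged site, and with several repair routes. Breaks through both strands are rejoined by end joining or copied from the sister chromatid by homologous recombination, crosslinks are handled by the Fanconi anaemia genes, and damaged bases, single-strand breaks, bulky adducts and mismatches each have an excision route. Many of these proteins work as fixed pairs or complexes. In human cells, loss of CDK12, a kinase of transcription elongation, is known to lower transcripts of long repair genes such as BRCA1, ATR, FANCD2 and FANCI, which is why gene length was examined for this set.

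Genes of DNA replication and repair are often targets of E2F, a family of transcription factors of entry into S phase. The letters TTTGGCGC, TTTCGCGC, TTTCCCGC and TTTGCCGC, forms of the E2F site, were searched on both strands of the 250 bases before the gene start in the RefSeq promoter table for GRCm38.p6, which matched 30 of the 37 listed genes with 33 windows. They were found in 6 of these windows (18.2%), against 3.59% of the 9244 windows of genes tested here and 1.86% of all 32851 windows. The CCAAT box was found in 51.5% of the members' windows and 36.1% of those of tested genes, and TTTGAA, the letters of the CHR element of G2/M genes, in 6.06% and 10.5%; none of the motifs contains another. The 6 genes were Bard1, Brca2, Chek2, Mdc1, Topbp1 and Xrcc6, and 4 windows are shown because Xrcc6 was higher with D in FPKM as deposited and the other 3 lower, with a form of the same letters in each. They are the plus strand of chr5:150522371-150522620 for Brca2, chr5:110839733-110839982 for Chek2, chr9:103305077-103305326 for Topbp1 and chr15:82016119-82016368 for Xrcc6, 5′ to 3′, with the E2F letters, which read as their reverse complement on this strand, in capitals. The windows of Brca2 and Chek2 end within 10 bases of the start that the expression table gives, that of Topbp1 runs 111 bases past it, and that of Xrcc6 lies 28533 bases inside the interval of its gene. A match of letters is a description and not evidence of binding.
Brca2: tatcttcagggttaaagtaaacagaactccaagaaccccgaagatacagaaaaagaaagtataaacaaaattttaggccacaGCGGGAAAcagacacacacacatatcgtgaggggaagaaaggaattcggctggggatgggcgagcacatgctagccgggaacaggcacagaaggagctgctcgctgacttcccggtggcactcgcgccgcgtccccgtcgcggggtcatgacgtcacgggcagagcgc
Chek2: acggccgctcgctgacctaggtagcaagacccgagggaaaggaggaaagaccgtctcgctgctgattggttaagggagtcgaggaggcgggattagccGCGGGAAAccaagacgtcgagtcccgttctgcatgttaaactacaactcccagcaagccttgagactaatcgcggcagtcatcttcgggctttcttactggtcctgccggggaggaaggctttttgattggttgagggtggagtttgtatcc
Topbp1: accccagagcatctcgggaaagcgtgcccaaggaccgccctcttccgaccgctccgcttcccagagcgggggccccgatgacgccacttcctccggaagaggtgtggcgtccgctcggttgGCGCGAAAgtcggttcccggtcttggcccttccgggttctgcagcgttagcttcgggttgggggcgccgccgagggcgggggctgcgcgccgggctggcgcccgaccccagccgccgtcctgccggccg
Xrcc6: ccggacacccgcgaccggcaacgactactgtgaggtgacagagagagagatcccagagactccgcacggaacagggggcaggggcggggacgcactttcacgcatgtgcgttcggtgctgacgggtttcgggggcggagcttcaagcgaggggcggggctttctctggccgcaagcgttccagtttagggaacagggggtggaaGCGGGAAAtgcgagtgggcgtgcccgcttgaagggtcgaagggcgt

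Levels are FPKM as deposited, that is reads per kilobase of gene length and M (mega) reads of a library size set by the authors. Reads recovered from these values summed to 12.8 to 15.7 M per library. The library size used by the authors was 7.13 to 8.40 M with D and 28.2 to 31.1 M without, so the same share of reads is worth more FPKM with D. Levels were therefore also rescaled so that every library has the same total of reads in the table, called table-read rescaling here, and set to a common distribution by quantile normalization. Divided by a median-of-ratios size factor computed over 9303 genes with reads in every library, that size came to between 14.4 and 15.5 M in all 12 libraries; the sources used here do not give how the authors set it. Mitochondrial genes held 7.41 to 14.4% of the reads with D and 3.30 to 4.20% without, and their part in the results on repair genes was not tested. The extraction protocol names retinas although the samples are a cell line; only 1 of 8 retina markers (Sag, at most 0.589 FPKM) and 1 of 6 leukocyte markers (Ptprc, at most 0.0677 FPKM) had a row in the table. Of 8 colon epithelium markers 2 had a row, Krt20 and Krt18, with a summed level of 80.04 to 91.1 FPKM in NP-D@MP, 73.04 to 87.7 in NP-D@M, 15.1 to 16.4 in NP@M and 15.2 to 18.7 in PBS. This sum hides a split. In the test given below, 1 of the 2 was called higher and 1 was not called for NP-D@M vs NP@M. In NP-D@MP vs PBS 1 was called higher and 1 lower. Epcam, Cdh1, Krt8, Krt19, Vil1 and Cdx2 had no row, so the label colon could not be checked on them. All 6 fibroblast markers had a row, with a sum of 12.9 to 15.4, 11.1 to 13.1, 70.6 to 73.1 and 71.9 to 86.6 FPKM in the same order, and their part in the results was not tested.

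With D, damage response genes went both ways: in FPKM as deposited more were lower than higher, while quantile normalization gave 11 higher and 12 lower for NP-D@M vs NP@M and 11 and 13 in NP-D@MP vs PBS. For NP-D@M vs NP@M, which sets a treatment with D against its counterpart without it, 9 of the 33 members that passed the filter on low values were higher and 20 were lower (limma on log2(FPKM + 1), Benjamini-Hochberg adjusted p under 0.05). In the same test 41.8% of all 10101 genes were called higher and 47.7% lower, 89.5% in all, beside 27.3% and 60.6% of the members, so a call by itself sets no member apart. The rises were Ercc1, Parp1, Xrcc5, Fanca, Fanci, Xrcc1, Xrcc6, Fancd2 and Ercc3, of which table-read rescaling called only Ercc1 and Parp1 higher. Genes of the checkpoint, of the damage-site adaptors and of homologous recombination were lower or not called, except under quantile normalization. That scaling called Chek1 and Rad54l higher here, and Atm, Chek1 and Rad54l higher in NP-D@MP vs PBS. NP-D@MP vs PBS, which shares no library with the first comparison, gave 9 higher and 18 lower, against 43.2% and 47.3% of all genes, 90.5% in all. Of the 33 members, 27 were called in the same direction in both comparisons, 9 higher and 18 lower, and none in opposite directions, while 85.5% of all genes were called alike in both. Atm and Ercc5 were called in the first comparison only, and Bard1, Chek1, Prkdc and Rad54l in neither. In sequencing of bulk RNA a smaller share of cells with a transcript and less of it per cell cannot be told apart. The members' median log2 change was -0.56 for NP-D@M vs NP@M and -0.50 in NP-D@MP vs PBS, beside -0.19 and -0.16 for all tested genes.

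**Figure D1:**
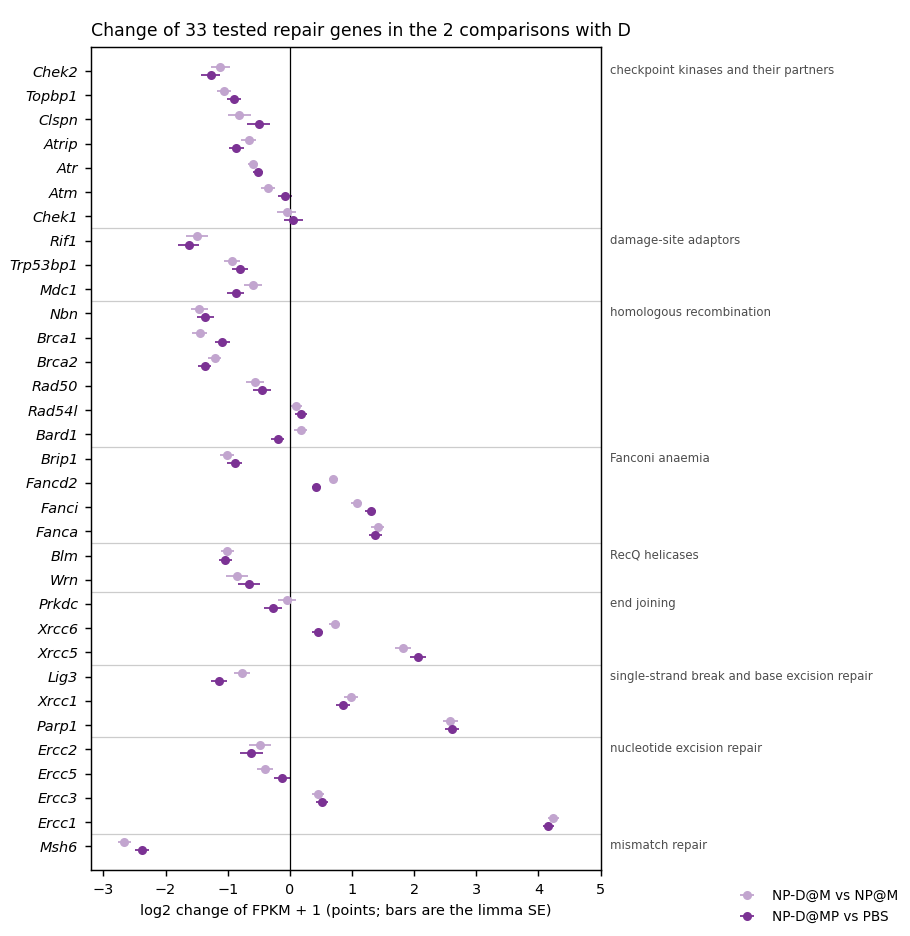
Log2 change of FPKM + 1 for the 33 tested members, grouped by role, for NP-D@M vs NP@M (pale) and NP-D@MP vs PBS (dark); points are limma estimates and bars their SE. Ercc1 and Parp1 lie farthest to the right and Msh6 farthest to the left in both comparisons, and the checkpoint, adaptor and recombination genes lie near or left of 0.

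The filter, at least 1 FPKM in at least 3 libraries, removed Palb2, Lig4 and Fancm, and 9 of the members that passed did so only through libraries without D, where they are high: Atr, Atrip, Blm, Brca1, Brca2, Brip1, Lig3, Trp53bp1 and Wrn. Counts by role include them and are descriptions. Without the filter, all 36 members gave 9 higher and 23 lower for NP-D@M vs NP@M, against 35.1% and 45.8% of 12584 genes, and 9 and 21 in NP-D@MP vs PBS, against 37% and 45%. The FPKM of the groups did not overlap in 31 of the 36 members for NP-D@M vs NP@M, 9 above and 22 below. In NP-D@MP vs PBS this held for 9 above and 21 below. Of the 33 tested members 28 did not overlap in each comparison, beside 87.3% and 93% of the tested genes.

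Among the checkpoint kinases and their partners, 6 of 7 fell and 1 was not called for NP-D@M vs NP@M. In NP-D@MP vs PBS 5 of 7 fell. Of all genes 47.7% and 47.3% were called lower. Quantile normalization gave 1 higher and 2 lower of the 7 in the first and 2 higher and 3 lower in the second. Chek2 (ENSMUSG00000029521, chromosome 5, 110839979 to 110874145, GRCm38), a kinase that ATM activates at double-strand breaks, had 3.85, 2.62 and 2.23 FPKM in NP-D@M, against 7.72, 7.27 and 7.12 in NP@M. It had 2.45, 2.50 and 1.96 FPKM in NP-D@MP, against 5.99, 8.23 and 6.89 in PBS. The libraries with D were all below those without. Its mean was 2.54-fold lower in NP-D@M (log2 change -1.12, SE 0.152, limma adjusted p = 2.35e-05) and 3.05-fold lower in NP-D@MP (log2 change -1.28, SE 0.152, limma adjusted p = 7.87e-06). Chek1 (ENSMUSG00000032113, chromosome 9, 36708482 to 36727065), the kinase that ATR activates during replication stress, had 3.19, 1.78 and 1.997 FPKM in NP-D@M, against 2.36, 2.35 and 2.46 in NP@M. In the other comparison it had 1.73, 2.25 and 1.63 FPKM in NP-D@MP, against 1.78, 1.41 and 2.09 in PBS. The groups overlapped in both, and limma gave adjusted p = 0.751 and adjusted p = 0.722. Whether Chek1 and Chek2 differ in their change was not tested.

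Atr (ENSMUSG00000032409, chromosome 9, 95857597 to 95951781), the kinase that answers to single-stranded DNA, had 0.408, 0.292 and 0.392 FPKM in NP-D@M, against 1.16, 1.01 and 1.02 in NP@M. It had 0.317, 0.329 and 0.237 FPKM in NP-D@MP, against 0.841, 0.814 and 0.884 in PBS, so no library with D reached the lowest without. Its log2 changes were -0.60 (SE 0.0787, limma adjusted p = 1.91e-05) and -0.51 (SE 0.0787, limma adjusted p = 6.88e-05), which became 0.034 and -0.011 with quantile normalization. Atrip, which brings ATR to coated single strands, had 0.388 ± 0.103 FPKM in NP-D@M and 1.20 ± 0.179 in NP@M (SD, n = 3). Its mean was 4.32-fold lower in NP-D@MP than in PBS, where the NP-D@MP mean was 0.319 FPKM and, without NP-D@MP replicate 12, 0.205 FPKM. Atm (ENSMUSG00000034218, chromosome 9, 53439149 to 53536740), the kinase of double-strand breaks, had 1.98, 1.40 and 1.57 FPKM in NP-D@M, against 2.64, 2.42 and 2.07 in NP@M. It had 1.71, 2.16 and 1.63 FPKM in NP-D@MP, against 1.89, 1.87 and 2.18 in PBS. Its fall was called in NP-D@M (log2 change -0.35, SE 0.114, limma adjusted p = 0.0118) and not in NP-D@MP (log2 change -0.077, SE 0.114, limma adjusted p = 0.52), where the groups overlapped. With the trend on genomic span removed, the call in NP-D@M ended (log2 change -0.072, adjusted p = 0.555). Quantile normalization called Atm higher in NP-D@MP vs PBS (log2 change 0.50, limma adjusted p = 0.00149). For NP-D@M vs NP@M it gave no call (log2 change 0.25, limma adjusted p = 0.0638). Topbp1, which switches on ATR and whose promoter window is shown above, had 2.42 ± 0.450 FPKM in NP-D@M and 6.09 ± 0.246 in NP@M, and 2.67 ± 0.427 FPKM in NP-D@MP and 5.81 ± 0.159 in PBS. Clspn, which encodes claspin and hands CHK1 to ATR, had 1.16 ± 0.617 FPKM in NP-D@M and 2.69 ± 0.203 in NP@M, and 1.59 ± 0.229 FPKM in NP-D@MP and 2.66 ± 0.196 in PBS. Both fell in both comparisons; the call of Clspn in NP-D@MP vs PBS (adjusted p = 0.0207) ended without PBS replicate 1 or 3 or NP-D@MP replicate 10 or 12 (adjusted p 0.0506 to 0.0584).

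All 3 adaptors of damaged sites fell in both comparisons, beside 47.7% and 47.3% of all genes. With table-read rescaling 3 of 3 were again lower in each, but so were 73.2% and 73.4% of all genes. Quantile normalization called 2 of 3 lower in each, beside 41.8% and 42.3% of all genes. Rif1 (ENSMUSG00000036202, chromosome 2, 52072832 to 52122383), which with 53BP1 holds back the trimming of broken ends, had 1.67, 0.787 and 1.23 FPKM in NP-D@M, against 5.04, 5.87 and 4.72 in NP@M. It had 0.382, 1.00 and 0.601 FPKM in NP-D@MP, against 4.59, 3.45 and 4.26 in PBS. The groups were apart in both, with means 4.24-fold lower in NP-D@M (log2 change -1.49, SE 0.171, limma adjusted p = 5.59e-06) and 6.19-fold lower in NP-D@MP (log2 change -1.63, SE 0.171, limma adjusted p = 2.64e-06). Trp53bp1 (ENSMUSG00000043909, chromosome 2, 121193281 to 121271407), the gene of 53BP1, had 0, 0.341 and 0.249 FPKM in NP-D@M, against 1.35, 1.15 and 1.31 in NP@M. The NP-D@M libraries held 0, 35 and 29 of its reads and the NP@M libraries 585, 483 and 578. In the other comparison it had 0.566, 0.196 and 0.247 FPKM in NP-D@MP, against 1.40, 1.24 and 1.30 in PBS. Its log2 changes were -0.93 (SE 0.129, limma adjusted p = 2.88e-05) and -0.80 (SE 0.129, limma adjusted p = 0.000103). Leaving out NP-D@M replicate 8 brought the NP-D@M mean of Trp53bp1 to 0.125 FPKM (0.197 with it), and leaving out NP-D@MP replicate 10 the NP-D@MP mean to 0.222 FPKM (0.336 with it). Mdc1, which binds the phosphorylated histone at breaks, had 2.78 ± 0.452 FPKM in NP-D@M and 4.67 ± 0.432 in NP@M, and 2.57 ± 0.686 FPKM in NP-D@MP and 5.46 ± 0.471 in PBS.

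In homologous recombination 4 of 6 tested members fell and 2 were not called in each comparison, beside 47.7% and 47.3% of all genes lower. Table-read rescaling called all 6 lower, beside 73.2% and 73.4% of all genes. Quantile normalization called Rad54l higher. Brca1 (ENSMUSG00000017146, chromosome 11, 101488764 to 101551955), a ubiquitin ligase that starts the trimming of broken ends, had 0.572, 0.226 and 0.357 FPKM in NP-D@M, against 2.49, 2.66 and 3.21 in NP@M. It had 0.940, 0.680 and 0.723 FPKM in NP-D@MP, against 2.85, 2.43 and 3.07 in PBS. All libraries with D were under 1 FPKM and all without were above 2.4. Its reads were 41, 14 and 25 in NP-D@M, against 652, 672 and 850 in NP@M. The mean was 7.23-fold lower in NP-D@M (log2 change -1.45, SE 0.1199, limma adjusted p = 3.13e-07) and 3.57-fold lower in NP-D@MP (log2 change -1.09, SE 0.1199, limma adjusted p = 4.06e-06). Brca2 (ENSMUSG00000041147, chromosome 5, 150522630 to 150570329), a tumour suppressor needed for strand exchange at breaks, had 0.812, 0.909 and 0.821 FPKM in NP-D@M, against 3.17, 3.499 and 3.16 in NP@M. It had 0.431, 0.648 and 0.637 FPKM in NP-D@MP, against 3.11, 2.54 and 3.57 in PBS. Here too the groups were apart, with folds of 3.87 lower in NP-D@M (log2 change -1.21, SE 0.106, limma adjusted p = 5.22e-07) and 5.37 lower in NP-D@MP (log2 change -1.37, SE 0.106, limma adjusted p = 1.78e-07). Bard1, the partner that keeps BRCA1 stable, was called in neither comparison. It had 6.74, 8.74 and 7.19 FPKM in NP-D@M, against 6.09, 7.22 and 6.39 in NP@M, and the groups overlapped (limma adjusted p = 0.139). In the other comparison it had 5.46, 5.20 and 6.10 FPKM in NP-D@MP, against 6.70, 6.39 and 6.51 in PBS (limma adjusted p = 0.0967).

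Nbn (ENSMUSG00000028224, chromosome 4, 15957925 to 15992589), the subunit of the MRN complex that calls ATM to breaks, had 1.98, 1.31 and 1.78 FPKM in NP-D@M, against 5.55, 8.02 and 5.68 in NP@M. It had 1.37, 1.56 and 1.33 FPKM in NP-D@MP, against 4.87, 5.21 and 5.56 in PBS. No library with D came near those without, and the log2 changes were -1.46 (SE 0.136, limma adjusted p = 9.48e-07) and -1.36 (SE 0.136, limma adjusted p = 1.73e-06). Rad50, the tethering subunit of the same complex, had a smaller log2 change, with 3.59 ± 0.740 FPKM in NP-D@M and 5.74 ± 0.567 in NP@M (log2 change -0.56, SE 0.147, limma adjusted p = 0.00355). It had 3.21 ± 0.809 FPKM in NP-D@MP and 4.67 ± 0.167 in PBS (log2 change -0.45, SE 0.147, limma adjusted p = 0.0132), a call that ended without NP-D@MP replicate 11 (adjusted p = 0.0606). Rad54l, a motor protein of strand exchange, had 1.49 ± 0.164 FPKM in NP-D@M and 1.32 ± 0.125 in NP@M, and 1.64 ± 0.237 FPKM in NP-D@MP and 1.32 ± 0.0760 in PBS, with adjusted p = 0.341 and 0.0833 by limma. Without NP-D@MP replicate 10, Rad54l was called higher in NP-D@MP vs PBS (log2 change 0.26, adjusted p = 0.0261). Palb2, the bridge between BRCA1 and BRCA2, was under 1 FPKM in all libraries, with 10, 0 and 8 reads in NP-D@M against 142, 109 and 146 in NP@M, and 22, 1 and 7 in NP-D@MP against 85, 103 and 97 in PBS. Its NP-D@MP mean was 0.184 FPKM, and 0.0758 FPKM without replicate 10.

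The Fanconi anaemia genes went both ways, with 3 of 4 tested members higher and 1 lower in each comparison. Of all genes 41.8% and 43.2% were higher. Table-read rescaling, with 5 tested, called none higher and 4 lower for NP-D@M vs NP@M and 3 lower in NP-D@MP vs PBS. Under that rescaling 73.2% and 73.4% of all genes were lower. Fanca (ENSMUSG00000032815, chromosome 8, 123268300 to 123318576), a subunit of the core ubiquitin ligase, had 6.89, 6.40 and 6.23 FPKM in NP-D@M, against 1.67, 1.75 and 2.01 in NP@M. It had 5.82, 7.63 and 7.39 FPKM in NP-D@MP, against 2.06, 2.16 and 1.91 in PBS, and was above 5.8 FPKM in every library with D. The means were 3.59-fold higher in NP-D@M (log2 change 1.42, SE 0.104, limma adjusted p = 1.13e-07) and 3.40-fold higher in NP-D@MP (log2 change 1.38, SE 0.104, limma adjusted p = 1.46e-07); rescaled to table reads the log2 changes were 0.01 (adjusted p = 0.927) and -0.10 (adjusted p = 0.329). Fancd2 and Fanci encode the pair of proteins that this ligase marks at crosslinks. Fancd2 (ENSMUSG00000034023, chromosome 6, 113531682 to 113597017) had 7.43, 7.12 and 6.86 FPKM in NP-D@M, against 4.05, 4.04 and 3.93 in NP@M. It had 5.39, 6.05 and 5.99 FPKM in NP-D@MP, against 3.98, 3.94 and 4.27 in PBS, again with no overlap. Its fold was 1.78 higher in NP-D@M (log2 change 0.70, SE 0.0788, limma adjusted p = 4.78e-06) and 1.43 higher in NP-D@MP (log2 change 0.43, SE 0.0788, limma adjusted p = 0.000299). Fanci (ENSMUSG00000039187, chromosome 7, 79391929 to 79450264) had 4.58, 4.82 and 5.147 FPKM in NP-D@M, against 1.83, 1.68 and 1.82 in NP@M. It had 4.91, 6.14 and 5.46 FPKM in NP-D@MP, against 1.58, 1.62 and 1.69 in PBS, and the groups were apart. The fold was 2.73 higher in NP-D@M (log2 change 1.07, SE 0.0893, limma adjusted p = 3.35e-07) and 3.38 higher in NP-D@MP (log2 change 1.30, SE 0.0893, limma adjusted p = 6.02e-08). Rescaled to table reads, Fancd2 turned to -0.85 and -1.14, and Fanci to -0.29 and -0.10.

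Brip1, a helicase that partners BRCA1, was the Fanconi gene that fell, with 0.445 ± 0.147 FPKM in NP-D@M and 1.92 ± 0.349 in NP@M, and 0.404 ± 0.104 FPKM in NP-D@MP and 1.60 ± 0.175 in PBS. Brip1 was lower under all 3 scalings, but it passed the filter only through libraries without D. Fancm, the translocase that carries the core complex to stalled forks, was untested, and its reads were 0, 0 and 16 in NP-D@M against 204, 223 and 297 in NP@M. They were 4, 8 and 5 in NP-D@MP against 211, 170 and 231 in PBS. Without NP-D@M replicate 9 its NP-D@M mean was 0. Both RecQ helicases fell in both comparisons, and under quantile normalization only Blm did; both passed the filter only through libraries without D. Blm, which takes apart crossed DNA strands, had 0.285 ± 0.170 FPKM in NP-D@M and 1.57 ± 0.117 in NP@M, and 0.179 ± 0.0292 FPKM in NP-D@MP and 1.43 ± 0.217 in PBS. Wrn, the Werner syndrome helicase, had 0.670 ± 0.430 FPKM in NP-D@M and 1.95 ± 0.266 in NP@M, and 0.860 ± 0.305 FPKM in NP-D@MP and 1.90 ± 0.129 in PBS.

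Of the end joining genes 2 of 3 tested rose in each comparison, beside 41.8% and 43.2% of all genes. Table-read rescaling, with 4 tested, called none higher and 3 lower, beside 73.2% and 73.4% of all genes lower. Xrcc5 (ENSMUSG00000026187, chromosome 1, 72307421 to 72394952), the larger subunit of Ku, the ring that caps broken ends, had 57.1, 59.6 and 54.9 FPKM in NP-D@M, against 12.7, 17.1 and 16.8 in NP@M. It had 66.4, 57.9 and 51.4 FPKM in NP-D@MP, against 13.4, 12 and 14.4 in PBS. The lowest library with D, at 51.4 FPKM, was above the highest without, at 17.1. The fold was 3.68 higher in NP-D@M (log2 change 1.83, SE 0.131, limma adjusted p = 8.95e-08) and 4.42 higher in NP-D@MP (log2 change 2.06, SE 0.131, limma adjusted p = 3.11e-08). Rescaled to table reads it was no longer called (adjusted p = 0.698 and 0.106). Xrcc6, the smaller Ku subunit, had 14.4 ± 1.26 FPKM in NP-D@M and 8.32 ± 0.581 in NP@M, and 14.8 ± 0.704 FPKM in NP-D@MP and 10.6 ± 0.478 in PBS; it rose 1.72-fold and 1.40-fold, and fell rescaled to table reads (log2 change -0.96 and -1.30); with quantile normalization the change in NP-D@MP was -0.14. Prkdc (ENSMUSG00000022672, chromosome 16, 15637866 to 15842235), the kinase that Ku recruits, had 1.22, 1.86 and 1.13 FPKM in NP-D@M, against 1.56, 1.52 and 1.28 in NP@M. It had 0.761, 0.690 and 1.34 FPKM in NP-D@MP, against 1.29, 1.29 and 1.34 in PBS. The groups overlapped in both comparisons, with limma adjusted p = 0.783 and 0.0866. Quantile normalization called Prkdc higher in both (log2 change 0.58, adjusted p = 0.00259, and 0.33, adjusted p = 0.0488). Without NP-D@MP replicate 12, it was called lower in NP-D@MP vs PBS (log2 change -0.42, adjusted p = 0.0112). Lig4, the ligase of the route, was untested, at 0.225 ± 0.165 FPKM in NP-D@M and 0.826 ± 0.205 in NP@M, and 0.252 ± 0.0386 FPKM in NP-D@MP and 0.734 ± 0.195 in PBS.

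In the repair of single-strand breaks 2 of 3 members rose and 1 fell in each comparison, which became 1 higher and 2 lower rescaled to table reads. Parp1 (ENSMUSG00000026496, chromosome 1, 180568924 to 180601254), the sensor of strand breaks that builds poly(ADP-ribose), had 80.6, 64.8 and 81.4 FPKM in NP-D@M, against 12.9, 11.3 and 11.1 in NP@M. It had 81.4, 88.8 and 94.1 FPKM in NP-D@MP, against 13.5, 14.8 and 12.6 in PBS. The fold was 6.44 higher in NP-D@M (log2 change 2.58, SE 0.114, limma adjusted p = 1.37e-09) and 6.46 higher in NP-D@MP (log2 change 2.61, SE 0.114, limma adjusted p = 1.28e-09), and it was also called higher rescaled to table reads (log2 change 0.82 and 0.78) and with quantile normalization (1.42 and 1.25). Xrcc1, the scaffold of this route, had 7.65 ± 1.01 FPKM in NP-D@M and 3.36 ± 0.318 in NP@M, and 9.56 ± 0.212 FPKM in NP-D@MP and 4.84 ± 0.544 in PBS. It rose 2.27-fold and 1.97-fold, and was lower rescaled to table reads (log2 change -0.55 and -0.79). Lig3, the ligase that XRCC1 holds, fell in both, with 0.867 ± 0.304 FPKM in NP-D@M and 2.15 ± 0.151 in NP@M, and 0.567 ± 0.196 FPKM in NP-D@MP and 2.43 ± 0.159 in PBS. With quantile normalization its call was lost for NP-D@M vs NP@M (log2 change -0.14, limma adjusted p = 0.398). It was kept in NP-D@MP vs PBS (log2 change -0.55, limma adjusted p = 0.0045).

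Ercc1 (ENSMUSG00000003549, chromosome 7, 19344778 to 19356524), which with XPF cuts out bulky adducts and unhooks crosslinks, had the largest rise of the members. It had 459, 462 and 499.6 FPKM in NP-D@M, against 23.5, 23.1 and 25.7 in NP@M. It had 538, 497 and 567 FPKM in NP-D@MP, against 27.4, 30.5 and 28.7 in PBS. The fold was 19.7 higher in NP-D@M (log2 change 4.24, SE 0.0887, limma adjusted p = 2.61e-11) and 18.5 higher in NP-D@MP (log2 change 4.16, SE 0.0887, limma adjusted p = 3.05e-11), above that of 99.4% and 99.0% of the tested genes. Recovered reads told the same direction before any scaling, with 11998, 10426 and 12760 reads in NP-D@M against 2244, 2125 and 2484 in NP@M. Its rise was called under table-read rescaling (log2 change 2.44 and 2.30) and quantile normalization (2.18 and 1.92) too.

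The rest of nucleotide excision repair had smaller changes: of the 4 members, Ercc1 included, 2 rose and 2 fell for NP-D@M vs NP@M, which became 1 and 3 rescaled to table reads and 1 and 1 with quantile normalization. Ercc3, a helicase of the TFIIH complex, rose 1.39-fold, to 18.6 ± 0.850 FPKM in NP-D@M, against 13.3 ± 0.373 in NP@M, and had 18.9 ± 1.47 FPKM in NP-D@MP and 13.0 ± 1.29 in PBS. Its direction turned both rescaled to table reads (log2 change -1.28 and -1.26) and with quantile normalization (-0.33 and -0.28). Ercc2, the other helicase of that complex, had 1.04 ± 0.357 FPKM in NP-D@M and 1.87 ± 0.624 in NP@M (log2 change -0.49, SE 0.179, limma adjusted p = 0.023), with overlapping groups, and 1.10 ± 0.245 FPKM in NP-D@MP and 2.22 ± 0.305 in PBS. The call of Ercc2 in NP-D@M ended without NP@M replicate 4 or 6 or NP-D@M replicate 8 (adjusted p 0.0739 to 0.0997). Ercc5, the nuclease on the other side of the adduct, had 2.98 ± 0.607 FPKM in NP-D@M and 4.21 ± 0.402 in NP@M (limma adjusted p = 0.0149, and 0.0564 without NP@M replicate 6 and 0.0619 without NP-D@M replicate 8). It had 3.34 ± 0.561 FPKM in NP-D@MP and 3.72 ± 0.378 in PBS, with no call. Msh6 (ENSMUSG00000005370, chromosome 17, 87975050 to 87990883), which recognises base mismatches, had the largest fall on the log2(FPKM + 1) scale among the tested members; by voom on recovered reads that of Trp53bp1 was larger for NP-D@M vs NP@M (log2 change -4.21, against -3.58 for Msh6). It had 0.896, 0.745 and 1.12 FPKM in NP-D@M, against 10.5, 12.4 and 10.5 in NP@M. It had 1.45, 1.39 and 1.15 FPKM in NP-D@MP, against 11.8, 11.5 and 10.02 in PBS. The fold was 12.1 lower in NP-D@M (log2 change -2.66, SE 0.109, limma adjusted p = 7.75e-10) and 8.34 lower in NP-D@MP (log2 change -2.38, SE 0.109, limma adjusted p = 1.89e-09), and it was called lower rescaled to table reads and with quantile normalization as well.

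**Figure D2:**
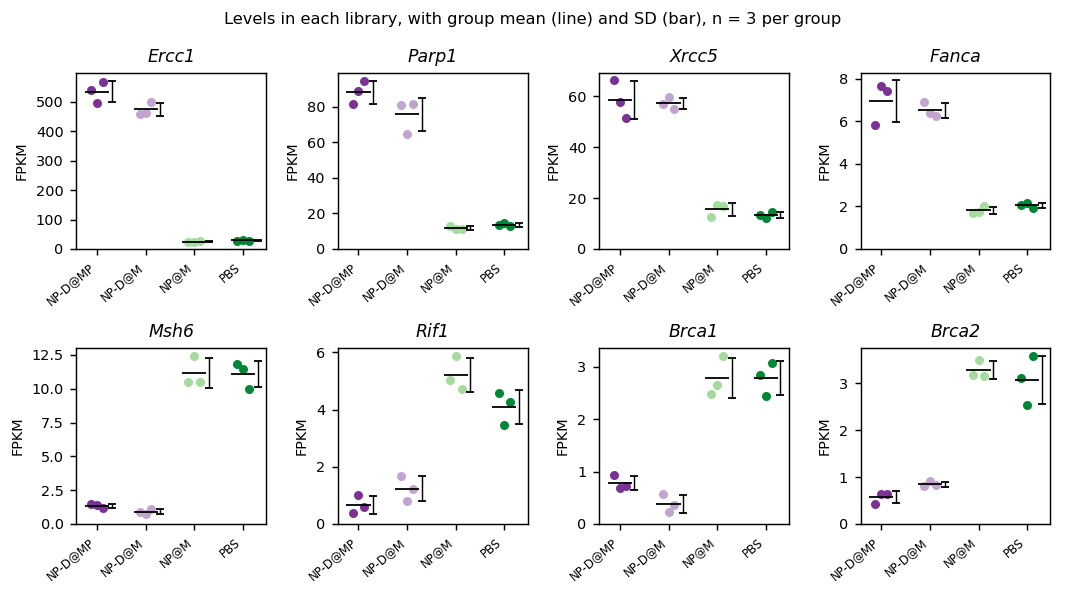
FPKM in each library (points) of 4 members that rose and 4 that fell, with the mean (line) and SD (bar) of the 3 libraries of NP-D@MP, NP-D@M, NP@M and PBS; each axis starts at 0. The 6 libraries with D sit apart from the 6 without in all 8 genes, with Ercc1 between 459 and 567 FPKM with D and between 23.1 and 30.5 without.

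Exons of other genes overlap some members, and no source used here gives the strand setting of the authors' counting, so reads of either gene may have been counted. The shared part was 42.7% of the exonic bases of Ercc2 (with Klc3 and Gm26852), 25.1% of Lig3 (Rffl), 16.0% of Atrip (Trex1), 16.0% of Fanci (Polg), 15.4% of Rad54l (Lrrc41), 15.0% of Trp53bp1 (Tubgcp4), 10.5% of Fanca (Zfp276) and 7.69% of Xrcc6 (Desi1). A share of bases does not bound the share of reads that came from the other gene, which was not examined. The levels of these genes are therefore uncertain by an unknown amount. For Ercc1 the shared part of exonic bases was 3.41% (Cd3eap), and for Parp1, Msh6, Brca2 and Xrcc5 under 1%.

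Ratios of partners of a complex were compared within each library, and most but not all differed with D. The ratio of 2 transcripts within a library is the same in FPKM as deposited and after table-read rescaling, which multiply a whole library by 1 factor, but not after quantile normalization, under which the log2 changes for NP-D@M vs NP@M were 0.56 for Xrcc5 and 0.58 for Prkdc. The pairs were chosen with results of these data known, so their ratios are descriptions. The ratio of Bard1 to Brca1 FPKM was 11.8, 38.7 and 20.1 in NP-D@M, against 2.45, 2.72 and 1.99 in NP@M. In NP-D@M it rested on only 41, 14 and 25 reads of Brca1. It averaged 7.29 ± 1.35 in NP-D@MP and 2.36 ± 0.254 in PBS (SD, n = 3). The ratio of Xrcc5, a Ku subunit, to Prkdc, the kinase it recruits, was 42.5 ± 9.16 in NP-D@M and 10.8 ± 2.53 in NP@M. In NP-D@MP it was 87.3, 83.9 and 38.3, against 10.3, 9.33 and 10.7 in PBS. The scaffold Xrcc1 stood to its ligase Lig3 at 10.2 ± 5.87 in NP-D@M and 1.57 ± 0.219 in NP@M, and at 18.0 ± 5.22 in NP-D@MP and 2.01 ± 0.360 in PBS. Groups were apart in all of these. How often the ratio of any other 2 genes does the same was not computed. Single genes did not overlap in 87.3% of the tested genes for NP-D@M vs NP@M and 93% in NP-D@MP vs PBS. Separation by itself therefore sets no pair apart. The Fancd2 to Fanci ratio, in which both genes had risen in FPKM, was lower with D, 1.62, 1.48 and 1.33 in NP-D@M against 2.21, 2.40 and 2.16 in NP@M. It was 1.10, 0.984 and 1.10 in NP-D@MP against 2.52, 2.44 and 2.53 in PBS. Nbn to Rad50 was 0.495 ± 0.186 in NP-D@M and 1.11 ± 0.162 in NP@M, and 0.465 ± 0.142 in NP-D@MP and 1.12 ± 0.0644 in PBS, again without overlap. Atr to Atrip overlapped between the groups, at 0.959 ± 0.115 in NP-D@M and 0.906 ± 0.187 in NP@M, and at 1.37 ± 1.08 in NP-D@MP and 0.621 ± 0.0877 in PBS, or 0.781 in NP-D@MP without replicate 11.

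**Figure D3:**
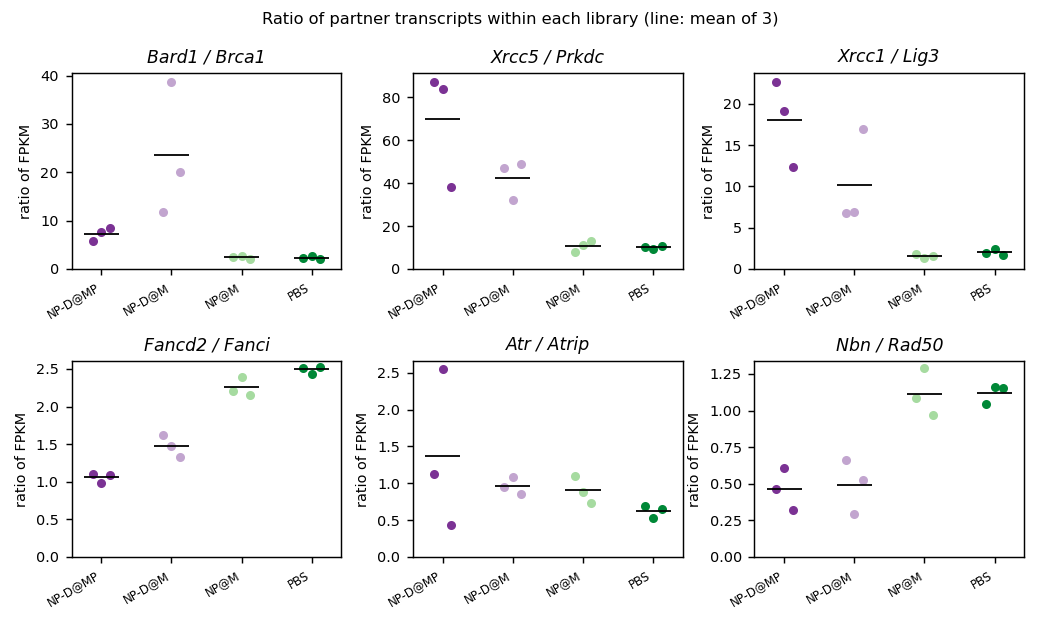
Ratio of the FPKM of 2 partner transcripts within each library (points) and the mean of 3 libraries (line) for NP-D@MP, NP-D@M, NP@M and PBS; each axis starts at 0. Libraries with D lie above those without for Bard1 to Brca1, Xrcc5 to Prkdc and Xrcc1 to Lig3, below them for Fancd2 to Fanci and Nbn to Rad50, and overlap them for Atr to Atrip.

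Summed over the 36 members, recovered reads made up 1453 ± 32.99 of each M reads in NP-D@M and 1900 ± 14.3 in NP@M (SD, n = 3). They made up 1521 ± 65.1 in NP-D@MP and 1885 ± 54.6 in PBS. The shares with D were below those without in all libraries. Ercc1 alone made up 823 ± 26.8 of each M reads in NP-D@M and 149 ± 10.1 in NP@M. Without it the other 35 members made up 629 ± 19.96 in NP-D@M and 1750.3 ± 20.6 in NP@M, and 634 ± 26.2 in NP-D@MP and 1707 ± 53.9 in PBS. Most genes had a lower share with D. With table-read rescaling the median log2 change of all genes was -1.40 for NP-D@M vs NP@M and -1.39 in NP-D@MP vs PBS. That of the members was -1.55 and -1.61. A lower share by itself therefore does not set the members apart.

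Repair genes are long, and the log2 change with D was highest in genes of short span and level among those of long span. Genomic span is the distance from the start to the end of a gene, introns included; its median was 47.7 kb for the tested members and 19.2 kb for all tested genes. For NP-D@M vs NP@M the median log2 change of all genes was 1.58 for those with the shortest spans (0.056 to 1.58 kb) and -0.57 for those with the longest (97.7 to 1093 kb), with genes split by span into 10 groups of equal size. In NP-D@MP vs PBS it was 1.78 and -0.56. Between these ends the medians fell and then levelled off. Groups 7, 8 and 9, counted from the shortest, had -0.57, -0.63 and -0.60 for NP-D@M vs NP@M. They had -0.55, -0.57 and -0.58 in NP-D@MP vs PBS. No member lay in the 3 groups of shortest span. Against the median of all genes in its own span group, 16 of 33 members were below and 17 above for NP-D@M vs NP@M, with a median difference of 0.0013, and 15 were below and 18 above in NP-D@MP vs PBS, with a median difference of 0.068. Without that comparison the members' median lay at -0.37 and -0.34 relative to all genes. Set against genes of like span, Msh6 lay farthest below (-2.30 on the log2 scale for NP-D@M vs NP@M), followed by Nbn (-0.88), Rif1 (-0.87) and Brca1 (-0.86). Ercc1 (4.18), Parp1 (3.16), Xrcc5 (2.42) and Fanca (2.05) lay farthest above.

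**Figure D4:**
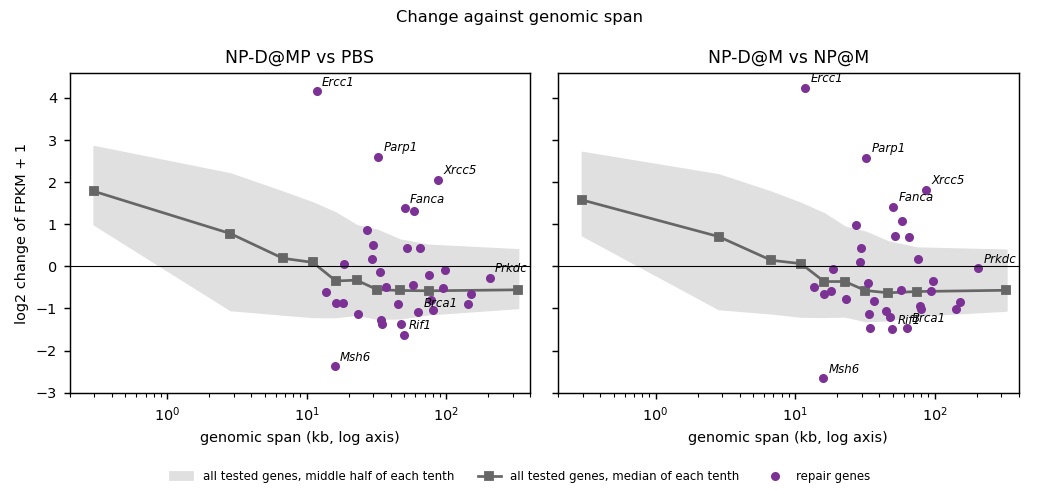
Log2 change of FPKM + 1 against genomic span in kb (log axis) for the 33 tested members (points), with the median (squares) and interquartile range (grey band) of all tested genes in 10 equal groups by span, for NP-D@MP vs PBS and NP-D@M vs NP@M. The squares fall from 1.78 and 1.58 in the group of shortest spans to -0.56 and -0.57 in the longest, levelling off among the longer spans. The members scatter on both sides of them.

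Within the set itself the changes had no order by span. Across the 33 members Spearman's rho between log2 change and span was -0.055 for NP-D@M vs NP@M and 0.010 in NP-D@MP vs PBS. Across all tested genes it was -0.27 and -0.28. These cover unlike ranges, since the members spanned 11.7 to 204 kb and none lay in the 3 groups of shortest span. The values therefore do not show that the set differs from other genes of like span. Genes share the libraries and are not independent, so the rhos are descriptions. Members called higher for NP-D@M vs NP@M had a median span of 50.3 kb and those called lower 46.5 kb. Prkdc, whose span of 204 kb is the longest, was not called, while Msh6, with the lowest log2(FPKM + 1) change of the tested members, spans 15.8 kb. For gene length, the exonic length by which the authors divided, rho was -0.29 and -0.27 across members and -0.32 in both comparisons across all genes. For GC content of the longest transcript rho was 0.43 and 0.38 across members and 0.19 and 0.16 across all genes, so it was farther from 0 than that for length among the members but not among all genes. Its median was 52.7% in members called higher for NP-D@M vs NP@M and 46.3% in those called lower. Removing the trend on genomic span from all genes left 11 members higher and 17 lower for NP-D@M vs NP@M, beside 37.1% and 47.9% of all genes, and 10 and 15 in NP-D@MP vs PBS, beside 37.9% and 47.3%.

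The direction of many members hung on the scaling. With table-read rescaling the median change of all genes was, on the log2 scale, -1.40 for NP-D@M vs NP@M, against -0.19 as deposited, and 2 of 35 tested members were higher (Ercc1 and Parp1) and 31 lower, beside 16.2% and 73.2% of all genes. In NP-D@MP vs PBS it gave 2 higher and 30 lower, beside 16.2% and 73.4%. Quantile normalization gave 11 higher and 12 lower, beside 37.7% and 41.8% of all genes, and 11 and 13, beside 38% and 42.3%. Ercc1 and Parp1 were higher, and Msh6, Rif1, Nbn, Brca1, Brca2, Chek2, Topbp1, Brip1 and Blm lower, under all 3 scalings in both comparisons. Brca1, Brca2, Brip1 and Blm passed the filter only through libraries without D, where they are high. Their place among the lower genes is a description.

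**Figure D5:**
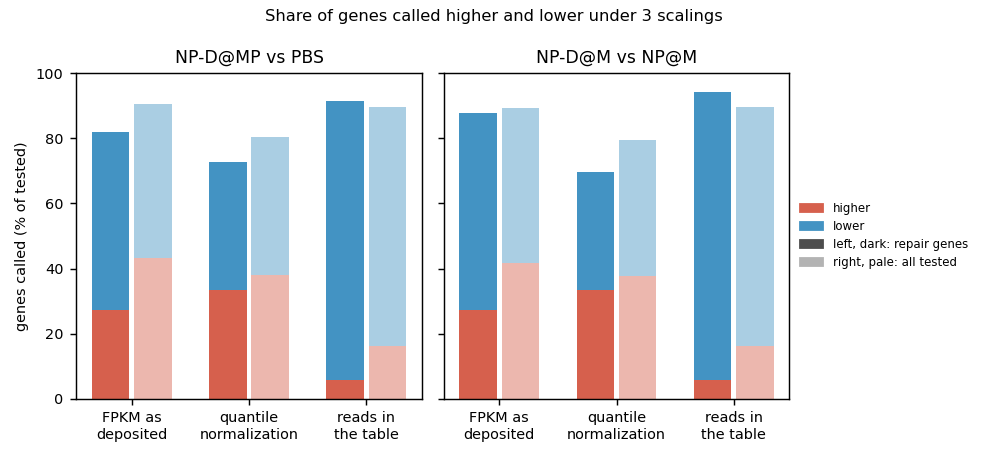
Percent of tested genes called higher (red) and lower (blue) by limma, for repair genes (dark, left bar) and all tested genes (pale, right bar), under FPKM as deposited, quantile normalization and table-read rescaling, in NP-D@MP vs PBS and NP-D@M vs NP@M. As deposited 27.3% of the repair genes were called higher, and 5.71% with table-read rescaling; for all genes these were 43.2% and 41.8%, and 16.2%.

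Repair and damage response genes outside the set gave a like split. Of 134 such genes listed by name 109 had a row and 99 were tested. For NP-D@M vs NP@M 30 rose (30.3%) and 60 fell (60.6%), beside 41.8% and 47.7% of all genes, with a median log2 change of -0.57. In NP-D@MP vs PBS 28 rose (28.3%) and 63 fell (63.6%), beside 43.2% and 47.3%, with a median of -0.63. Rescaled to table reads, 9 of 108 were higher and 96 lower in the first, beside 16.2% and 73.2% of all genes. In the second 8 were higher and 96 lower, beside 16.2% and 73.4%. Quantile normalization gave 34 higher (34.3%) and 39 lower (39.4%) of 99 in the first, beside 37.7% and 41.8% of all genes. In the second it gave 31 higher (31.3%) and 42 lower (42.4%), beside 38% and 42.3%. By log2(FPKM + 1) change the largest falls were of H2afx, the histone variant that is phosphorylated at breaks, Wee1, the kinase that holds back entry into mitosis, and Usp1, which removes ubiquitin from FANCD2. H2afx had 1.89, 4.88 and 1.58 FPKM in NP-D@M, against 29.9, 23.6 and 25.9 in NP@M (log2 change -2.95, SE 0.353, limma adjusted p = 8.14e-06). Its mean was 2.79 FPKM in NP-D@M and 2.61 in NP-D@MP, or 1.74 without NP-D@M replicate 8 and 1.44 without NP-D@MP replicate 12, and 35.9 ± 1.67 FPKM in PBS. Wee1 had 0.488, 0 and 0.926 FPKM in NP-D@M, against 7.42, 8.45 and 7.88 in NP@M, from 14, 0 and 26 reads in NP-D@M. Its NP-D@M mean was 0.471 FPKM, or 0.244 without replicate 9. Usp1 had 0.925, 1.66 and 2.25 FPKM in NP-D@M, against 11.7, 16.4 and 14.9 in NP@M, 8.90-fold lower in NP-D@M.

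On the same scale the largest rises were of Cetn2, a centrin that helps find adducts, Rpa3, the smallest subunit of the single-strand binding protein RPA, and Mad2l2, a subunit of the bypass polymerase zeta. Cetn2 had 103, 97.4 and 111 FPKM in NP-D@M, against 11.4, 10.2 and 9.13 in NP@M (log2 change 3.22, SE 0.106, limma adjusted p = 1.65e-10). Rpa3 had 434, 352 and 378 FPKM in NP-D@M, against 40.3, 42.9 and 44.2 in NP@M (log2 change 3.16, SE 0.0939, limma adjusted p = 9.1e-11). Mad2l2 had 68.8, 84.4 and 68.4 FPKM in NP-D@M, against 7.62, 7.24 and 8.79 in NP@M (log2 change 3.07, SE 0.114, limma adjusted p = 3.88e-10). In all 3 the libraries of NP-D@M lay far above those of NP@M, and in NP-D@MP vs PBS the folds were 10.9, 10.1 and 9.53.

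CDK12 itself, its paralog and their cyclin were lower with D. Cdk12 had 1.05 ± 0.373 FPKM in NP-D@M and 2.35 ± 0.277 in NP@M (log2 change -0.72, SE 0.155, limma adjusted p = 0.000921), and 0.872 ± 0.341 FPKM in NP-D@MP and 2.60 ± 0.166 in PBS (log2 change -0.96, SE 0.155, limma adjusted p = 0.000103). With quantile normalization its call was lost in both (adjusted p = 0.582 and 0.0503). Cdk13 had 0.570 ± 0.125 FPKM in NP-D@M and 3.32 ± 0.295 in NP@M, and 0.643 ± 0.0244 FPKM in NP-D@MP and 3.03 ± 0.201 in PBS, 5.82-fold and 4.71-fold lower. Ccnk, the cyclin K gene, had 4.44 ± 1.18 FPKM in NP-D@M and 9.06 ± 0.302 in NP@M, and 4.78 ± 0.561 FPKM in NP-D@MP and 9.03 ± 0.234 in PBS. Of the 4 genes known to depend on CDK12 in human cells, Brca1 and Atr fell and Fancd2 and Fanci rose in FPKM as deposited. Table-read rescaling called 0 higher and 4 lower for NP-D@M vs NP@M, and 0 and 3 in NP-D@MP vs PBS. With quantile normalization Atr was called in neither (log2 change 0.034 and -0.011). The split thus hung on the scaling, and dependence on CDK12 was not tested.

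No member was called between the 2 treatments with D. NP-D@MP vs NP-D@M gave 0 of 33 members called, beside 0.0495% of all genes, 4 higher and 1 lower. An unadjusted limma p under 0.05 was seen in 8 members and 1713 genes, and limma voom on the recovered reads called 0 genes. The members' log2 changes lay between -0.42 and 0.37. The smallest adjusted p was for Bard1, with 5.58 ± 0.462 FPKM in NP-D@MP and 7.56 ± 1.05 in NP-D@M (log2 change -0.37, SE 0.106, limma adjusted p = 0.194). Brca1 had 0.781 ± 0.140 FPKM in NP-D@MP and 0.385 ± 0.175 in NP-D@M (log2 change 0.37, SE 0.1199, limma adjusted p = 0.218), and Fancd2 had 5.81 ± 0.363 FPKM in NP-D@MP and 7.14 ± 0.285 in NP-D@M (log2 change -0.26, SE 0.0788, limma adjusted p = 0.205). Groups were apart in 6 of the 33 tested members, beside 14.2% of the tested genes. These results rested on a single library: without NP-D@M replicate 9 limma called 954 genes higher and 288 lower, among them Xrcc1 (log2 change 0.39) and Lig3 (-0.39) of the members.

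No member was called between the treatments without D either. NP@M vs PBS gave 0 of 33 called, beside 0.0099% of all genes, 0 higher and 1 lower. An unadjusted p under 0.05 was seen in 3 members, Xrcc1, Xrcc6 and Ercc1, and in 1092 genes, and limma voom on the recovered reads called 0 genes, or 19 higher and 51 lower with library sizes from the table. Xrcc1 had 3.72, 3.11 and 3.26 FPKM in NP@M, against 4.83, 5.39 and 4.30 in PBS (log2 change -0.42, SE 0.108, limma adjusted p = 0.448), and was called lower by voom when library sizes were taken from the table (log2 change -0.52, adjusted p = 0.0462). Xrcc6 had 8.89, 8.34 and 7.73 FPKM in NP@M, against 10.97, 10.8 and 10.1 in PBS (log2 change -0.32, SE 0.0913, limma adjusted p = 0.448). The groups were apart for both genes, as for 8 of the 33 tested members and 28.4% of the tested genes. Ercc1, the member with the largest rise with D, had 24.1 ± 1.41 FPKM in NP@M and 28.9 ± 1.55 in PBS (log2 change -0.25, SE 0.0887, limma adjusted p = 0.448). Across members Spearman's rho between log2 change and GC content was -0.83 in this comparison and across all tested genes -0.67, a description on libraries in which no member was called.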

How the data were processed

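RNA from CT26 cells was sequenced in 12 libraries, 3 for each treatment, grouped by the treatment in the labels. The authors deposited 1 table of FPKM values for 12584 genes; the submitters' processing notes name Bowtie 0.12.2 and the build mm8, while the coordinates in the table are those of GRCm38 in GENCODE release M21 for 12104 genes. The gene counter and the strand setting are not given in the sources used here. FPKM times gene length gave whole reads for all values (tolerance 1e-06 relative to the value). These sum to 12.8 to 15.7 M per library, and the lowest levels rest on few reads (0 to 35 in a library of NP-D@M for Trp53bp1).

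The test was that of limma 3.58.1 (under R 4.3.3) applied to log2(FPKM + 1), which understates the change of low genes, over 10101 genes with at least 1 FPKM in at least 3 libraries, in 1 fit of all 12 libraries. P-values were Benjamini-Hochberg adjusted over these genes, with a threshold of 0.05. Means are of FPKM with SD over 3 libraries, and folds are ratios of these means. The fit was tested on simulated data in which few genes changed and the library sizes were known. That test does not bear on the scaling or on data where most genes are called. Alternatives were table-read rescaling, quantile normalization, no filter, a pseudocount of 0.1, a trended and robust fit, limma voom on recovered reads, only the 6 libraries compared, removal of trends on span and gene length, and leaving out each library. Voom with library sizes from the table was added after seeing the data. Tables were handled with pandas 2.3.3 and numpy 2.4.6, and figures drawn with matplotlib 3.10.9.

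The members and lists were chosen with earlier results of these data known. Every member could be named; values in every library were given for Brca1, Brca2, Atm, Atr, Chek1, Fancd2, Fanci, Prkdc, Parp1 and Trp53bp1 and for the 6 largest falls and 4 largest rises among called members whose groups did not overlap for NP-D@M vs NP@M. Of other repair genes the 3 largest called falls and rises were named, and Cdk12, Cdk13 and Ccnk in any case. Library values of other members were added after they were seen.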

Additional observations from a re-analysis of the deposited data

How the results depend on the processing

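No paired analysis was possible because the libraries are numbered once through and no number is shared between groups. Table-read rescaling gave 2 members higher and 31 lower for NP-D@M vs NP@M, and 2 and 30 in NP-D@MP vs PBS; voom with library sizes from the table gave 2 higher in each and 28 lower in NP-D@MP vs PBS, and 1 lower in NP@M vs PBS. Quantile normalization gave 12 lower for NP-D@M vs NP@M. The members' median log2 change relative to all genes, -0.37 for NP-D@M vs NP@M, was -0.15 with table-read rescaling, 0.087 with quantile normalization, -0.46 with a pseudocount of 0.1, -0.48 with either voom fit, -0.018 with the span trend removed and -0.0079 with the gene length trend removed. In NP-D@MP vs PBS, where it was -0.34, the same settings gave -0.22, 0.023, -0.51, -0.54, 0.042 and 0.035. The last 2 settings take out the trend by construction; for the others the cause was not tested.

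With each library left out in turn, NP-D@M vs NP@M gave 9 members higher and 17 to 20 lower, a relative median of -0.41 to -0.30, and 16 to 17 members below genes of like span. NP-D@MP vs PBS gave 9 to 10 higher, 17 to 18 lower, a relative median of -0.39 to -0.28, and 14 to 16 below. NP-D@MP vs NP-D@M gave 0 to 1 in either direction, with 1 in each without NP-D@M replicate 9. NP@M vs PBS gave 0 in all.

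Of the values of single genes, 1277 had the same direction and side of the threshold as reported, 45 lost a call, 25 gained one and 58 reversed. For NP-D@M vs NP@M, table-read rescaling and voom with library sizes from the table reversed Bard1 (-1.43 and -1.65), Ercc3 (-1.28 and -1.36), Fancd2 (-0.85 and -1.001), Fanci (-0.29 and -0.39), Rad54l (-0.99 and -1.66), Xrcc1 (-0.55 and -0.65) and Xrcc6 (-0.96 and -1.05). In NP-D@MP vs PBS they reversed Chek1 (-1.16 and -1.77), Ercc3 (-1.26 and -1.35), Fanca (-0.10 and -0.14), Fancd2 (-1.14 and -1.37), Fanci (-0.10 and -0.13), Rad54l (-0.95 and -1.58), Xrcc1 (-0.79 and -0.91) and Xrcc6 (-1.30 and -1.41). Quantile normalization reversed Atm (0.25), Atr (0.034), Chek1 (0.50), Ercc2 (0.15), Ercc3 (-0.33), Ercc5 (0.015) and Prkdc (0.58) for NP-D@M vs NP@M. In NP-D@MP vs PBS it reversed Atm (0.50), Clspn (0.078), Ercc3 (-0.28), Ercc5 (0.28), Prkdc (0.33) and Xrcc6 (-0.14). Removing the span trend reversed Prkdc (0.15) for NP-D@M vs NP@M, and Atm (0.19), Bard1 (0.097) and Ercc5 (0.058) in NP-D@MP vs PBS. Removing the gene length trend reversed Chek1 (0.0069) and Prkdc (0.28) for NP-D@M vs NP@M, and Atm (0.21), Ercc5 (0.034) and Prkdc (0.065) in NP-D@MP vs PBS. With a library left out, uncalled Chek1 ranged from -0.23 to 0.064 for NP-D@M vs NP@M and from -0.036 to 0.14 in NP-D@MP vs PBS, and uncalled Prkdc from -0.17 to 0.040 for NP-D@M vs NP@M.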
